A study of Mus musculus with 5 samples.

Results

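The 9 mouse genes described here encode nucleases that clear extracellular, lysosomal and cytosolic nucleic acids: Dnase1l3, Dnase1l1, Dnase2a, Trex1, Pld3, Pld4, Rnaset2a, Rnaset2b and Rnase4. They were chosen by name, with the CPM values and the intima against adventitia comparison of these same 5 libraries already seen, and were found by symbol among the 41388 genes of the series. For that reason their levels are a description and no test of them is reported. All 9 were found, and 8 had enough reads to enter the fit over all genes.

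The libraries were made from poly-A RNA of macrophages sorted from mouse aorta. For the 3 adventitia libraries the mice were ApoE-/- on the C57BL/6 strain and fed a high fat diet for 28 weeks (6 mice named for the group), and PI-negative CD64+ cells were sorted from the outer layer along the entire aorta, abdominal part included. The 2 intima libraries came from C57BL/6 mice, 5 animals pooled in each, and their PI-negative CD64+ CD11c+ MHC II+ cells came from the thoracic aorta once the outer layer had been taken off; the labels give no diet or age for them. Genotype, layer, aortic segment, sort gate and diet as labelled all differ between the groups and cannot be told apart. Both tissues were digested with a mixture that held the DNase I protein. The labels do not say how the 6 mice were divided among the adventitia libraries, so the spread between them may be partly technical.

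Counted reads ran from 3941381 to 10076142 in the adventitia libraries and were 14970204 and 20806925 in the intima libraries. Genes with at least 1 read numbered 23289 to 25738 in the adventitia but 17489 and 16374 in the deeper intima libraries. Why fewer genes were seen there was not tested. Absent or very low counts in the intima are therefore not read as absence of a transcript. Apoe, the gene knocked out in the adventitia mice, had 10.8 to 21.1 CPM (reads scaled to the library total) there and 4741 and 4209 CPM in the intima. The 10 macrophage markers, among them Csf1r, Adgre1, Lyz2 and Cd68, had reads in all 5 libraries, and their summed level was 24062 to 31948 CPM in the adventitia against 25811 and 20618 CPM in the intima. The intima libraries stood further apart from each other than the adventitia libraries did, with a median absolute log2 difference over tested genes of 1.09 against 0.68 to 0.88. In bulk samples fewer cells of a type and less RNA per cell cannot be told apart.

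Macrophages take up dying cells and debris, and nucleases keep the nucleic acids of that cargo from building up. DNASE1L3 is secreted and cuts DNA still packed in chromatin or vesicles, while DNase II works in the acid lysosome on DNA of engulfed cells and TREX1 removes DNA from the cytosol. PLD3 and PLD4 are endolysosomal exonucleases for single-stranded nucleic acids, RNase T2 is the acid ribonuclease of the lysosome, and RNase 4 is a secreted member of the RNase A family. Loss of several of them leads to interferon-driven or lupus-like disease through sensors such as cGAS, TLR7 and TLR9.

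The genes differ in how much of their sequence is their own, and this decides what a read count can show. Rnaset2a and Rnaset2b are a duplicated pair on chromosome 17. In the GENCODE M21 transcripts their coding sequences were identical over all 780 bases, and their first 60 coding bases are shown because no read from such a stretch can be given to either gene, with capitals for bases that are the same in both.
Rnaset2a and Rnaset2b: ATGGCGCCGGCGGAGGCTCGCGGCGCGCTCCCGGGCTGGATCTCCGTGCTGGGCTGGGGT
The region around the gene start was nearly as alike. Over 255 aligned bases of the RefSeq windows (GRCm38.p6) 254 were identical, and the only difference was A102G, counted from 1 at the 5′ end of the stretch with the Rnaset2a base first. The differing base is in capitals; the Rnaset2a stretch is chr17:8147783-8148037 on the minus strand and the Rnaset2b stretch is chr17:6978655-6978909 on the plus strand.
Rnaset2a: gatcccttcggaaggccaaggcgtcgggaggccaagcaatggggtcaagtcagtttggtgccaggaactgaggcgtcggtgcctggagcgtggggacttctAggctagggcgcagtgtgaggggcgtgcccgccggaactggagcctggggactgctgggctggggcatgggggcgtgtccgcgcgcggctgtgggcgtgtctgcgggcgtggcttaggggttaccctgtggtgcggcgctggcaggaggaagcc
Rnaset2b: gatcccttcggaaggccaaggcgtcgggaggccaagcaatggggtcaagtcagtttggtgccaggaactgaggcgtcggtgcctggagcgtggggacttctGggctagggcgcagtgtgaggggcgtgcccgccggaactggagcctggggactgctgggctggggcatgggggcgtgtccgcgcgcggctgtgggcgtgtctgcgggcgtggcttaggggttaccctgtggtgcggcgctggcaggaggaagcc
The other related members were far less alike. Coding sequences of Pld3 and Pld4 were 61.1% identical over 1431 aligned bases, and their longest identical run, 28 bases, is shown with its flanks (coding bases 619 to 678 of Pld3 and 658 to 717 of Pld4, identical bases in capitals).
Pld3: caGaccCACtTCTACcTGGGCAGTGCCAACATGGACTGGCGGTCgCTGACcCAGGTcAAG
Pld4: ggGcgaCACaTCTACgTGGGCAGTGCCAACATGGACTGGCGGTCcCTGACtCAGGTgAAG
Dnase1l1 and Dnase1l3 were 58.8% identical over 888 aligned coding bases and shared no run longer than 11 bases, shown in the same way (coding bases 762 to 817 and 752 to 811). Alignment gaps are left out of these lines, so they differ in length, and the first of the 12 capitals in a row in Dnase1l1 is parted from the run by such a gap.
Dnase1l1: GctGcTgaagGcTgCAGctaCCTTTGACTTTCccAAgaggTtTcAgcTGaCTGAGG
Dnase1l3: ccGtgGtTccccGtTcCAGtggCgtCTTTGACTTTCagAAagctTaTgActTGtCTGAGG

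A read of these libraries is 50 bases long, so the share of 50-base stretches of a gene's transcripts that occur in no other gene's transcripts was counted. It was 99.9% for Dnase1l3 and 100% for Dnase1l1, Pld3 and Pld4. It was 92.2% for Rnase4 and 72.5% for Dnase2a, but 21.1% for Rnaset2a and 42.8% for Rnaset2b. For Trex1 it was 4.19%, with 95.8% of the stretches also in transcripts of Atrip, the gene of the ATR-interacting protein. Those differences separate members whose counts stand for 1 gene from members whose counts do not.

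**Figure D1:**
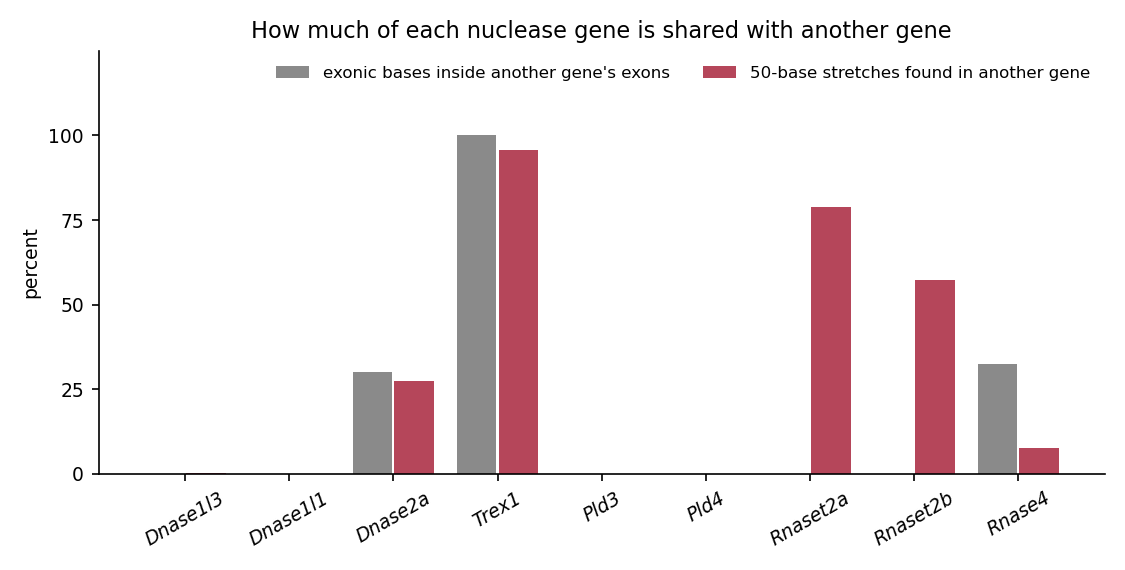
For each of the 9 genes, the grey bar is the percent of its exonic bases in the files that lie inside exons of another gene and the red bar is the percent of its 50-base transcript stretches found in transcripts of another gene. Trex1 reaches 100% and 95.8%, Rnaset2a and Rnaset2b are high only for the second measure, and Dnase1l3, Dnase1l1, Pld3 and Pld4 are at or near 0 for both.

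Dnase1l3, the secreted nuclease for chromatin DNA, had the widest difference between the layers. The gene (ENSMUSG00000025279) spans bases 7964533 to 7994573 of chromosome 14 in GRCm38 on the minus strand, and none of its exonic bases lie in another gene's exons. It had 39, 371 and 433 reads in adventitia replicates 1, 2 and 3, or 9.90, 36.8 and 43.1 CPM. The intima libraries held 22739 and 56611 reads, or 1519 and 2721 CPM. Both intima libraries were far above all 3 adventitia libraries, and the lower of them was 35.3-fold above the highest adventitia library. Group means were 29.9 ± 17.6 CPM (SD, n = 3) in the adventitia and 2120 ± 850 CPM (SD, n = 2) in the intima. The fitted log2 difference, intima minus adventitia as everywhere here, was 6.31 (SE 0.68), and it ran from 5.82 to 6.68 with any single library left out.

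Levels of different genes can be compared only per length, as RPKM (reads scaled by exonic length and by library total). On that scale Dnase1l3 was 8th, 7th and 5th of the 8 genes other than Trex1 in adventitia replicates 1, 2 and 3. It was 2nd in both intima libraries. Counts of members with shared sequence, such as Rnaset2a and Rnaset2b, may be too low, which could shift these ranks. The RPKM of Dnase1l3 exceeded that of 44.6 to 70.0% of tested genes in the adventitia and of 98.6 and 99.4% in the intima. The RPKM ratio of Dnase1l3 to its relative Dnase1l1 was 0.125 to 0.142 in the adventitia libraries, a narrow range, and 3.60 and 11.4 in the intima.

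Markers of other cell types differed between the same libraries. The summed level of 10 endothelial markers was 32.5 to 53.5 CPM in the adventitia against 700 and 870 CPM in the intima, with Pecam1, Emcn and Vwf called higher by edgeR. Of the 9 that were tested, 8 had both intima libraries above the adventitia range, as did 14.1% of all tested genes. Kdr, at 0.200 and 0.0481 CPM in the intima, lay below its 1.27 to 1.89 CPM of the adventitia. Cldn5, not tested, had no read in intima replicate 1 but reached 12.5 CPM in the other intima library, against 0.0992 to 0.507 CPM in the adventitia. For 10 smooth muscle markers the sums were 4.66 to 13.7 CPM against 271 and 105 CPM, of which Acta2 and Tagln held most. Without that pair, left out after the values were seen, the other 8 summed to 3.87 to 12.9 CPM against 20.2 and 32.0 CPM, and Myh11 was lower in the intima (0.695 to 1.39 CPM against 0.401 CPM and 0).

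Conventional dendritic cells are known to make DNASE1L3. Their 10 markers summed to 243 to 432 CPM in the adventitia against 35.2 and 44.1 CPM in the intima, but Cd209a alone made up most of the adventitia sum (up to 388 CPM, against 0.468 and 0.384 CPM). Without Cd209a, left out after the values were seen, the other 9 summed to 42.3 to 61.4 CPM against 34.7 and 43.7 CPM, and the ranges overlapped. Batf3, a large part of that sum, was at 13.7 to 38.3 CPM against 29.3 and 11.2 CPM. Of the 9 tested markers, 6 lay below the adventitia range in both intima libraries, as did 26.4% of all tested genes. They were Cd209a, Xcr1, Flt3, Zbtb46, Itgae and Fscn1, and Xcr1 had no read in either intima library. Only Clec9a lay above its range, at 0.397 to 4.82 CPM against 4.94 and 21.5 CPM, and 2 overlapped. In each intima library 4 of the 10 were at 0. Sums of 10 plasmacytoid dendritic markers overlapped (660 to 882 CPM and 900 and 573 CPM), as did those of 10 B cell markers (31.0 to 55.8 CPM and 33.8 and 27.2 CPM). Lair1 and Tcf4 held most of the plasmacytoid sums. Siglech was at 36.5 to 60.1 CPM against 37.6 and 0.0481 CPM, and 6 and 4 of the 10 had no read in intima replicates 1 and 2. For the B cell list these numbers were 3 and 7, and Cd79b made up 26.9 CPM of the sum in intima replicate 2. Overlapping sums therefore do not show equal markers. The part of these cell types in the Dnase1l3 difference was not tested.

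By the distance between log2 profiles centred on each gene's mean over the 5 libraries, the genes most like Dnase1l3 among 6663 others averaging 4 or more in log2 CPM were Mmp13, Adamdec1 and Gja5. Their root mean square distances were 0.43, 0.53 and 0.58 on the log2 scale. Mmp13, a collagenase, was at 3.30, 9.13 and 23.2 CPM in the adventitia against 818 and 835 CPM in the intima. With 5 libraries in 2 groups such likeness mostly restates the group difference.

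**Figure D2:**
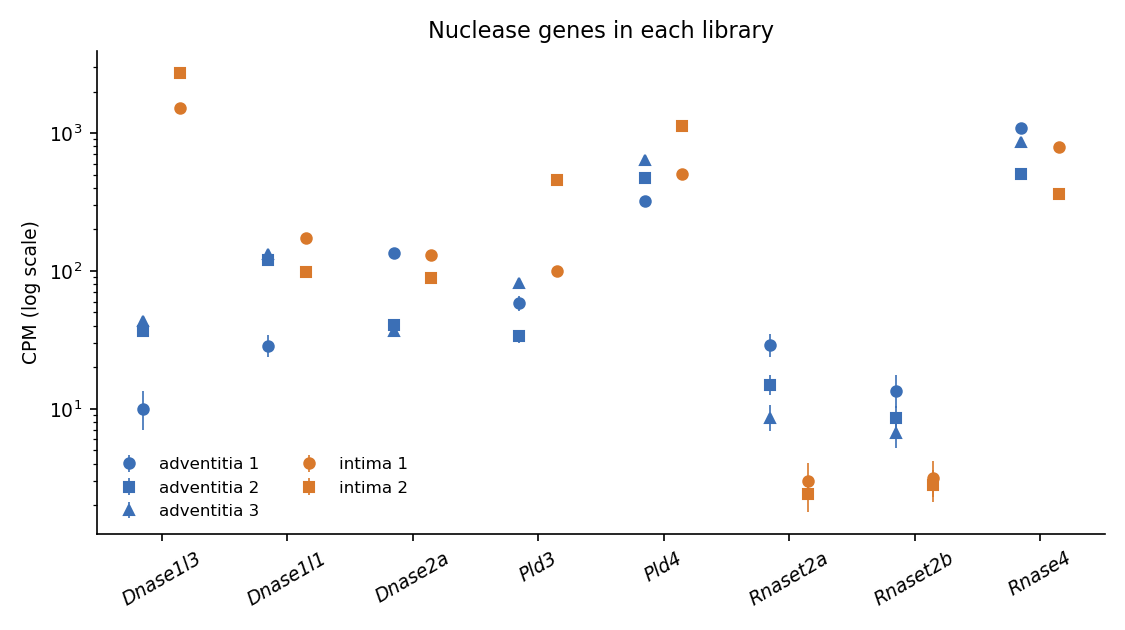
Deposited CPM of 8 nuclease genes on a log axis, with blue for the 3 adventitia and orange for the 2 intima libraries, marker shape for the replicate and bars for 95% Poisson counting intervals; Trex1, listed at 0, is left out. Dnase1l3 stands apart, with 9.90 to 43.1 CPM in the adventitia against 1519 and 2721 CPM in the intima.

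Dnase1l1 and Dnase2a overlapped between the groups. Dnase1l1, a relative of DNase I (chromosome X, 74273217 to 74282337), was at 28.7, 121 and 133 CPM in the adventitia against 174 and 98.0 CPM in the intima. Its low value was adventitia replicate 1, the shallowest library, where 113 reads gave a 95% counting interval of 23.6 to 34.5 CPM. The log2 difference of 0.74 (SE 0.67) was 0.23 without that library and 0.02 without intima replicate 1.

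Dnase2a, the lysosomal acid DNase (chromosome 8, 84908560 to 84922915), was at 136, 40.3 and 36.8 CPM in the adventitia against 130 and 89.3 CPM in the intima. Adventitia replicate 1 was the highest of the 5 libraries and the other adventitia libraries were the lowest. Its log2 difference of 0.94 (SE 0.63) was 1.64 without adventitia replicate 1 and 0.42 without intima replicate 1. In the files 1616 of its 5389 exonic bases lie in exons of Mast1 on the opposite strand, and Mast1 reached at most 2.28 CPM. Reads in the shared exons may be missing from both counts, so the low Mast1 count does not show that Dnase2a was fully counted.

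Trex1, the cytosolic exonuclease that limits cGAS activation, was listed at 0 reads in all 5 libraries. All 1314 exonic bases of Trex1 (chromosome 9, 109057933 to 109060338) lie in exons of Atrip on the same strand. The series shows what such an overlap goes with: of 798 genes with at least 99% of their exonic bases inside other genes, 797 had no read in any library (99.9%), against 24.3% of the 33950 genes with under 1% shared. The listed 0 is therefore not read as a level of Trex1, and no floor or interval is drawn from it. Atrip had 3, 10 and 17 reads in the adventitia (0.761, 0.992 and 1.69 CPM) and 108 and 489 reads in the intima (7.21 and 23.5 CPM). Reads that fell in the exons shared with Trex1 are not shown by either count.

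Both endolysosomal phospholipase D family nucleases were measured in every library. Pld3 (chromosome 7, 27532000 to 27553218) was at 58.1, 33.5 and 81.3 CPM in the adventitia against 100 and 459 CPM in the intima. The ranges did not overlap, but the lower intima library was only 1.23-fold above the highest adventitia library, and the intima libraries differed 4.58-fold. The log2 difference of 2.45 (SE 0.63) was 1.19 without intima replicate 2.

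Pld4 (chromosome 12, 112760655 to 112768986) was abundant in both layers. It stood at 321, 473 and 641 CPM in the adventitia against 506 and 1128 CPM in the intima, with intima replicate 1 inside the adventitia range. The log2 difference was 0.95 (SE 0.48) and fell to 0.46 without intima replicate 2. Per length Pld4 was the 2nd of the 8 genes other than Trex1 in each adventitia library. It was 3rd in intima replicate 1 and 1st in intima replicate 2, and stood above 97.2 to 99.4% of tested genes. The RPKM ratio of Pld4 to Pld3 was 8.17, 20.9 and 11.7 in the adventitia and 7.46 and 3.63 in the intima, so both intima ratios lay below the adventitia range. Intima replicate 2 was the highest library for both genes.

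The gene start of Pld4 is shown because it is the most abundant member free of shared sequence that has a RefSeq window (chr12:112760405-112760704 on the plus strand, GRCm38.p6). Capitals mark GAGGAAG, a sequence of the kind bound by ETS factors such as the macrophage factor PU.1, searched on both strands.
Pld4: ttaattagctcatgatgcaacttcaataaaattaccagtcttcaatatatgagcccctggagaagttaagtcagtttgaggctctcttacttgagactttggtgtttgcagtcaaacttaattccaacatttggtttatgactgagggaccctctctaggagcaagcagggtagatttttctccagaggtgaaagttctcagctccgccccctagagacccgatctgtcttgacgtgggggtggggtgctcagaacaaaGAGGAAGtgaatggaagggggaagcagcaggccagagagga
Windows were found for 8 of the 9 genes, 12 in all. GAGGAAG occurred in windows of Pld4, Trex1, Rnaset2a and Rnaset2b, and in 13.4% of 32544 windows of all genes. The Rnaset2a and Rnaset2b matches lie at the same place in their nearly identical start regions, so they are not separate. Identical windows were counted once in the shares over all genes, which are per window and not per gene. The interferon response element core, a pair of GAAA repeats with any 2 bases between them, occurred only in the Pld3 window among these genes (3.45% of all windows), and CACGTG, the core of the lysosomal gene element, in none (7.17%). A match describes the letters and is no measure of binding.

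**Figure D3:**
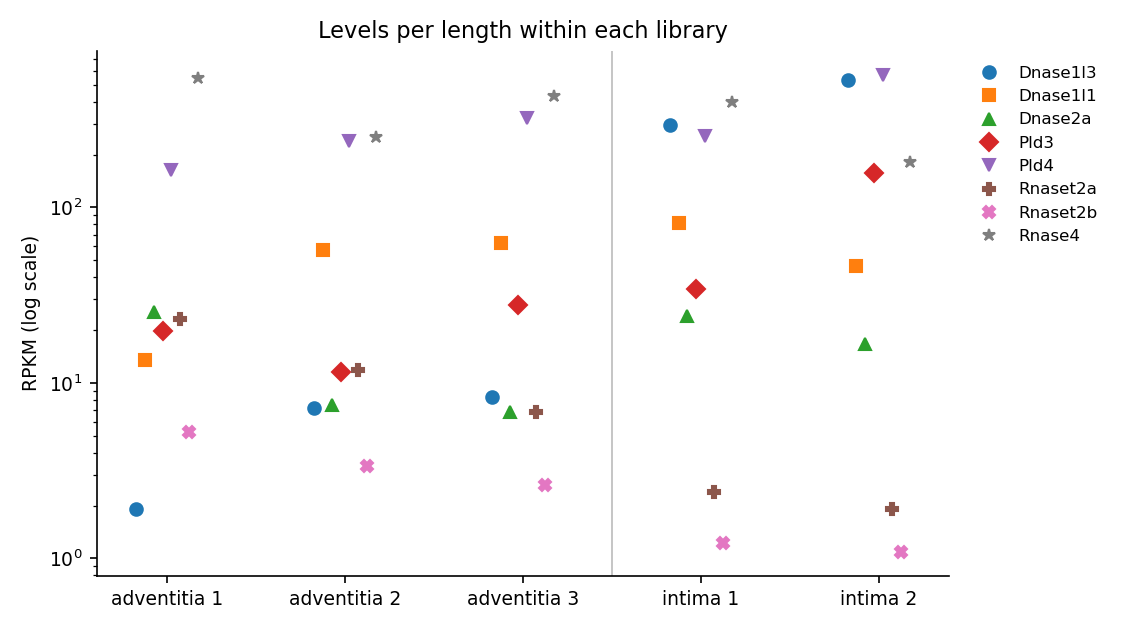
RPKM of 8 nuclease genes on a log axis in the 3 adventitia libraries (left of the grey line) and the 2 intima libraries (right), 1 symbol and colour per gene. Rnase4 and Pld4 are the 2 highest in the adventitia; in the intima Dnase1l3 joins them at 295 and 528 RPKM, from 1.92 to 8.36 RPKM in the adventitia.

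The RNase T2 pair had few reads everywhere. Rnaset2a (chromosome 17, 8128610 to 8148097) had 114, 151 and 86 reads in the adventitia, or 8.55 to 28.9 CPM, and 45 and 50 reads in the intima, or 3.01 and 2.40 CPM. Rnaset2b (chromosome 17, 6978860 to 7011299) was at 13.4, 8.54 and 6.66 CPM against 3.14 and 2.79 CPM. Both genes were lower in each intima library than in any adventitia library, by 2.85-fold and 2.12-fold at the nearest pair of libraries. Their log2 differences were -2.40 (SE 1.49) and -1.41 (SE 1.58). Both standard errors were wide, and the reason was not tested.

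Summed over the pair, reads came to 167, 237 and 153 in the adventitia and to 92 and 108 in the intima, or 15.2 to 42.4 CPM and 6.15 and 5.19 CPM. The ratio of Rnaset2a to Rnaset2b reads was 2.15, 1.76 and 1.28 in the adventitia and 0.957 and 0.862 in the intima. Fibroblast markers were lower in the same libraries, with a summed level of 10 genes of 673 to 1555 CPM against 304 and 283 CPM. Of the 10, 6 lay below the adventitia range in both intima libraries, as did 26.4% of all tested genes, and 4 overlapped. The part of fibroblasts in the lower Rnaset2 counts was not tested. With identical coding sequences, and with the handling of reads that map to several places not given in the sources used here, the split between the genes is uncertain and the sum may leave out reads of the shared part.

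Rnase4, the secreted ribonuclease (chromosome 14, 51091077 to 51106151), was the member with the highest RPKM in all 3 adventitia libraries and in intima replicate 1. It stood at 1085, 501 and 865 CPM in the adventitia against 792 and 361 CPM in the intima, and the groups overlapped. The log2 difference was -0.22 (SE 0.50); it was -1.14 without intima replicate 1 and turned to 0.38 without intima replicate 2 and to 0.03 with no filter on low counts, so no direction is given. Ang, the angiogenin ribonuclease gene on the same strand, shares 651 exonic bases with Rnase4, 32.6% of it. Ang was at 70.1 to 101 CPM in the adventitia against 90.8 and 38.3 CPM in the intima. The RPKM ratio of Rnase4 to Ang was 4.56 to 8.37 in the adventitia and 5.56 and 6.02 in the intima, so these ranges overlapped too. Reads of the shared exons cannot be told apart.

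Among the 8 members in the fit, 4 had group ranges of CPM that stayed apart, with Dnase1l3 and Pld3 higher and Rnaset2a and Rnaset2b lower in the intima. Of all 13408 tested genes 40.5% had such ranges, with 14.1% higher and 26.4% lower. The members were chosen with these values known, so nothing is read from that count. The median log2 difference of the 8 members was 0.84, and that of all tested genes was 0.14.

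Other genes of nucleic acid handling were taken from 3 lists and tested in the same fit with edgeR's quasi-likelihood test and Benjamini-Hochberg adjustment over all tested genes. Over all genes 0.671% were called at an adjusted p under 0.05, 0.522% higher and 0.149% lower in the intima, and 22.4% had an unadjusted p under 0.05. DESeq2 called 9.90% of the genes to which it gave an adjusted p, and limma voom 6.26% of all tested genes; the counts in each list are to be read beside these shares. The nuclease list held 30 further genes, mostly nucleases but also the inhibitor Rnh1 and other nucleic acid enzymes such as Adar and Skiv2l. Of these, 17 were tested and 0 were called by edgeR, with 2 at an unadjusted p under 0.05. DESeq2 called 2 higher and 0 lower, and limma voom 1 and 0. The median log2 difference of the 17 was 0.68. Samhd1, which hydrolyses deoxynucleotides, was at 178 to 188 CPM in the adventitia against 211 and 290 CPM in the intima (edgeR adjusted p = 0.362). Rnh1, the cytosolic inhibitor of RNase A family enzymes, was at 33.2, 78.5 and 56.0 CPM in the adventitia against 183 and 272 CPM in the intima, a log2 difference of 2.22 (SE 0.52, edgeR adjusted p = 0.0868). Both were above the adventitia range in both intima libraries without passing the test.

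Rnase6 and Endod1 overlapped between the groups. Rnase6 was at 22.3 to 51.9 CPM and at 89.6 and 22.0 CPM, and Endod1 at 13.1 to 44.7 CPM and at 62.1 and 8.03 CPM. Dnase1, the founding member of the DNase I family, was at 1.78 CPM or less in every library and was not tested.

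Of 30 genes for nucleic acid sensors, their trafficking factors and adaptors, 29 were tested and 0 were called by edgeR, with 4 at an unadjusted p under 0.05; DESeq2 called 0 higher and 2 lower, and limma voom 0 and 2. Their median log2 difference was 0.12, and the ranges did not overlap for 3 higher and 9 lower genes. Over all tested genes these shares were 14.1% and 26.4%, so nothing about sensors is read from the counts. Hsp90b1, the chaperone of Toll-like receptors, was at 579 to 781 CPM in the adventitia against 658 and 780 CPM in the intima, and Unc93b1, which carries these receptors to endosomes, at 231 to 345 CPM and at 247 and 779 CPM. Tlr7, the endosomal sensor of single-stranded RNA, was at 89.6 to 177 CPM against 53.2 and 40.3 CPM (log2 difference -1.42, SE 0.57, edgeR adjusted p = 0.174). Irf5 was at 110 to 111 CPM against 109 and 347 CPM, Ifi204 at 139 to 206 CPM against 133 and 19.7 CPM, and Tmem173, which encodes STING, at 55.8 to 147 CPM against 80.6 and 181 CPM. Chosen after their values were seen, Cgas, the cytosolic DNA sensor, was at 5.58, 30.7 and 17.2 CPM in the adventitia against 0.200 and 0.0481 CPM in the intima (3 reads and 1 read), and Oas3 at 27.9, 29.3 and 8.06 CPM against 1 read in the intima libraries together; their edgeR adjusted p-values were 0.112 and 0.0868, and DESeq2 and limma voom called both lower. Without intima replicate 1 the edgeR log2 differences were -3.05 for Ifi204, -4.88 for Oas2 and -10.9 for Oas3. Without intima replicate 2 that of Irf7 was -8.47. Each of these values rests on 1 intima library. Oas2 was at 53.8 to 94.1 CPM in the adventitia against 57.0 and 2.55 CPM in the intima. Irf7 was at 121 to 187 CPM against 0.334 and 44.4 CPM, so for both genes the intima libraries stood far apart.

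Of 20 genes for enzymes and transporters of released nucleotides, 18 were tested and 0 were called by edgeR, with 8 at an unadjusted p under 0.05; DESeq2 called 3 higher and 2 lower, and limma voom 2 and 1. The median log2 difference was 1.21, with 7 genes higher and 4 lower without overlap of the ranges (14.1% and 26.4% of all tested genes). Slc29a1, a nucleoside transporter, was at 26.4, 40.1 and 91.5 CPM in the adventitia against 207 and 483 CPM in the intima (2.87 higher on the log2 scale, SE 0.61, edgeR adjusted p = 0.0736). Acp5, the tartrate-resistant acid phosphatase, was at 11.4 to 70.4 CPM against 227 and 385 CPM (log2 difference 3.26, SE 0.71, edgeR adjusted p = 0.0765). Gda, guanine deaminase, went the other way, at 313, 331 and 217 CPM against 42.0 and 7.69 CPM (log2 difference -3.23, SE 0.74, edgeR adjusted p = 0.0868). These 3 genes missed the threshold in edgeR although their ranges lay well apart. Without intima replicate 1 the log2 differences were 3.17 for Slc29a1, -5.19 for Gda and 5.32 for Nt5e, each resting on 1 intima library. Nt5e was at 0.695 to 1.27 CPM in the adventitia against 0.334 and 37.1 CPM in the intima, so its intima libraries disagreed. Without adventitia replicate 3 Acp5 and Slc29a1 passed the threshold (edgeR adjusted p = 0.0286 and 0.0490). Entpd1, which degrades extracellular ATP, was at 139 to 194 CPM against 370 and 380 CPM, Acp2, the lysosomal acid phosphatase, at 82.5 to 102 CPM against 155 and 153 CPM, and Nt5c at 49.9 to 95.3 CPM against 119 and 96.0 CPM.

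**Figure D4:**
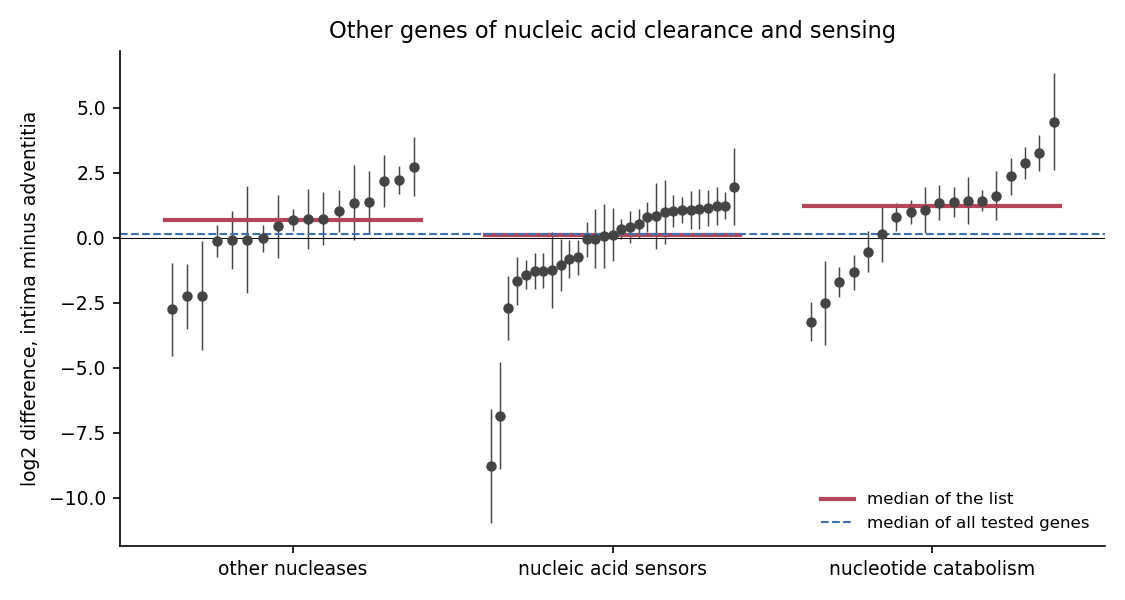
Fitted log2 difference (intima minus adventitia) of each tested gene of 3 lists, ordered within the list, with bars for the standard error, a red line for the list's median (0.68, 0.12 and 1.21) and a dashed line for the median of all tested genes (0.14). No gene of the 3 lists passed the edgeR threshold.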

How the data were processed

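Poly-A RNA of sorted macrophages was turned into cDNA (SMARTer Ultra Low), amplified for 12 cycles and read as single 50-base reads, per the labels' protocols. The authors deposited read counts per Ensembl gene, with exon coordinates in GRCm38, per the file headers. Alignment and counting tools named in the submitters' processing notes are featureCounts 1.4.5, Subread and STAR 2.0.4b; annotation release, strand setting and handling of multiply mapping reads are not given in the sources used here. CPM and RPKM values, also deposited by the authors, equalled those recomputed from the counts and exonic lengths (tolerance 1e-06). Symbols were found for 40254 of 41388 genes.

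Counts were fitted with edgeR 4.0.16 in R 4.3.3 (glmQLFit, glmQLFTest; filterByExpr with minimum count 10 and minimum total 15; TMM; no covariates) over all 5 libraries, and the procedure was tested on simulated data. The outcome on simulated data is not reported here, so a gene that was not called is not read as unchanged. The standard error is the size of the log2 difference over the square root of F. Levels are deposited CPM with exact 95% Poisson intervals, which cover counting error only. Distances between profiles used TMM-normalised log2(CPM + 0.5). Alternatives were other scalings and filters, DESeq2 1.42.0, limma 3.58.1 voom, a replicate block and leaving out single libraries. Exon overlaps used the files' coordinates; 50-base stretches and coding sequences came from GENCODE M21 transcripts, and start regions, searched for motifs on both strands, from RefSeq.

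Members and lists were chosen with earlier results of these data known. Named list genes were all called genes and the 6 with the highest mean CPM; others were chosen after their values were seen, and 1 gene that the rule names is not reported here. In the nucleotide list, 1 of 21 genes, Pnp, was not matched by symbol and is not analysed here.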

Additional observations from a re-analysis of the deposited data

How the results depend on the processing

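Dnase1l3 kept its direction in all 13 alternatives (5.82 or more on the log2 scale), as did Pld3 (1.19 to 3.00), Rnaset2a (-2.90 to -1.99), Rnaset2b (-1.91 to -1.16), Pld4, Dnase1l1 and Dnase2a; Rnase4 changed sign in 2. Scaling moved the median of all tested genes from 0.14 (TMM) to -0.02 (DESeq2 size factors in edgeR), -0.09 (library size alone) and -0.35 (upper quartile).

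Over all genes edgeR called 70 higher and 20 lower in the intima (77.8% higher). Counts of higher and lower calls were 59 and 34 with library size alone (63.4%), 46 and 29 with the upper quartile (61.3%), 312 and 74 with no filter (80.8%), 135 and 261 with 1 CPM in every library of a group (34.1%), 500 and 725 with DESeq2 (40.8%) and 214 and 625 with limma voom (25.5%). With 1 library left out they ran from 9 (without adventitia replicate 1) to 229 higher and from 1 to 160 lower (without intima replicate 1). The cause was not tested; leaving out a library also leaves fewer samples.

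In the lists, where edgeR called 0, the nuclease list had 1 higher with no filter, 1 with the 1 CPM filter, 2 with DESeq2 and 1 with voom. Sensors had 1, 1, 2 and 2 lower in the same order, and 0 to 3 with a library left out. Nucleotide genes had 2, 2, 3 and 2 higher and 1, 1, 2 and 1 lower, and 0 to 2 higher and 0 to 1 lower with a library left out.

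Blocking on the replicate number gave 133 higher and 50 lower calls over all genes, 1 lower sensor (Irf7), and 2 higher and 1 lower nucleotide genes (Acp5, Slc29a1 and Gda). The labels do not say that a number marks a shared source. The differences between replicates 1 and 2 of the groups had a correlation across 13408 genes of 0.02. A single correlation of this kind cannot exclude a shared preparation. Where intima was left with 1 library, its spread was taken from the adventitia.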
